A study of Homo sapiens with 8 samples.

Results

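RNA recovered with hnRNP U was set against RNA without immunoprecipitation (IP) in mitotic hTERT-RPE1, a cell line of human retinal pigment epithelium that telomerase (hTERT) has made immortal. The comparison rests on 4 of the 8 libraries of the study: 2 IP libraries made with an anti-hnRNP U antibody (clone 3G6) and 2 libraries without antibody, which the deposited ratio columns call total RNA. All mitotic cells had been held in 2 mM thymidine for 24 h, which stalls DNA replication, released for 6 h and left overnight in S-trityl-L-cysteine (STLC), an inhibitor of the spindle motor Eg5 that arrests cells in mitosis. The other 4 libraries, IP and no IP from interphase cells held in 2 mM thymidine for 24 h, entered the same fits and served for a test of the difference between the phases. Cells were lysed in detergent and the lysate was cleared by centrifugation. The sources used here do not say whether the libraries without IP came from the cleared lysate, and no control IP was analysed here, which means that RNA bound to hnRNP U and RNA that stuck to beads cannot be told apart. Libraries were directional and depleted of ribosomal RNA. A gene table held 13471 genes, and 1321 features stood in a separate lncRNA table.

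hnRNP U, also called SAF-A, is an abundant nuclear protein that binds DNA through a SAP domain and RNA through an RGG region. In interphase it holds nuclear RNAs to chromatin and takes part in keeping chromatin open and in pre-mRNA splicing. In mitosis the nuclear envelope breaks down and the contents of nucleus and cytoplasm mix.

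Values are FPKM, fragment counts divided by transcript length and by the mapped total of the library. Pearson's r between replicates, across genes, was 0.9938 without IP and 0.9902 in the IP in log2 values of the gene table, and 0.8671 and 0.8732 in the lncRNA table. Total depth is unknown, and low values gave relative depths of 1.258 for the second library without IP and of 0.742 and 1.379 for the IP libraries, the first library without IP being 1. The 10 most abundant genes took 61.4% and 58.4% of the FPKM sum without IP and 20.6% and 14.0% in the IP. All 8 listed mitotic markers were higher in mitosis than in interphase without IP, by 1.18 to 2.60 on the log2 scale, while in these bulk samples more mitotic cells and more RNA per cell cannot be told apart. Of 12 retinal pigment epithelium markers, 4 had a row in the gene table and 2 reached 1 FPKM (MITF and OTX2), while RPE65, BEST1, RLBP1 and TYR had no row in the table used here. The mesenchymal marker VIM stood at 1204 and 1289 FPKM without IP and 579 and 747 FPKM in the IP, and 0 of 8 blood and endothelial markers had a row. The labels do not say that replicates were separate cultures, so p-values measure the spread between these libraries.

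The IP and the libraries without IP differed over most of the transcriptome. Of 13471 genes, 4425 (32.8%) were higher and 4269 (31.7%) lower in the IP at an adjusted p below 0.05 (limma, log2(FPKM + 1), Benjamini-Hochberg). In each of the 8694 calls both replicate pairs moved the same way, which a call with 2 libraries a group nearly requires. Calls with a log2 fold change of at least 1 numbered 1625, and calls of -1 or less numbered 1706. Over all genes the median log2 fold change came to 0.01. Every list below is read against these shares.

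Among protein-coding genes TRIM44, which encodes a tripartite motif protein, had the largest increase. Its values were 36.5 and 34.7 FPKM without IP and 191 and 201 FPKM in the IP (log2 fold change 2.43, standard error (SE) 0.10, adjusted p 6.4e-06). The groups lay far apart and the replicates close together. FAM126A, a component of a plasma membrane lipid kinase complex, had 69.7 and 59.7 FPKM without IP and 330.1 and 269 FPKM in the IP (2.19). SLC7A11, the cystine transporter, had 12.8 and 11.5 FPKM without IP and 67.96 and 53.5 FPKM in the IP (2.22). LEPR, the leptin receptor, had 5.51 and 6.25 FPKM without IP and 30.02 and 28.6 FPKM in the IP (2.14). The interval of LEPR overlaps that of another gene, so reads may be shared. KITLG, the ligand of the receptor KIT, had 6.03 and 7.22 FPKM without IP and 28.7 and 35.6 FPKM in the IP (2.12). In each of these genes both IP libraries lay far above both libraries without IP. The other genes named by the rule were ZBED6 (2.24), PTAR1 (2.17), ZNF780A (2.16), the mitochondrial glycerol phosphate dehydrogenase GPD2 (2.16), RAB3GAP2 (2.15), the stress kinase ZAK (2.10) and EID3 (2.24), whose interval in the file is 91.7 times as long as the annotated gene and can include reads of its neighbour. All 12 were also positive in interphase, from 1.41 for EID3 to 2.62 for PTAR1.

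Ribosomal protein genes made up 6 of the 12 protein-coding genes with the largest decreases. C9orf16 had 50.8 and 42.2 FPKM without IP and 6.24 and 4.40 FPKM in the IP (log2 fold change -2.92, SE 0.15, adjusted p 6.4e-06). RPL39, a ribosomal protein gene, had 316 and 393 FPKM without IP and 45.9 and 54.7 FPKM in the IP (-2.79). RPS28, another, had 159 and 148 FPKM without IP and 22.5 and 22.05 FPKM in the IP (-2.73). Both IP libraries lay far below both libraries without IP in all 3. RPLP1 (-2.72), RPS29 (-2.68), RPS21 (-2.66) and RPL12 (-2.55) are ribosomal too. The others were PFDN2, a prefoldin subunit (-2.57), TPM2, a tropomyosin (-2.56), PPDPF (-2.51), DRAP1, a corepressor subunit (-2.51), and COMMD6 (-2.51).

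**Figure D1:**
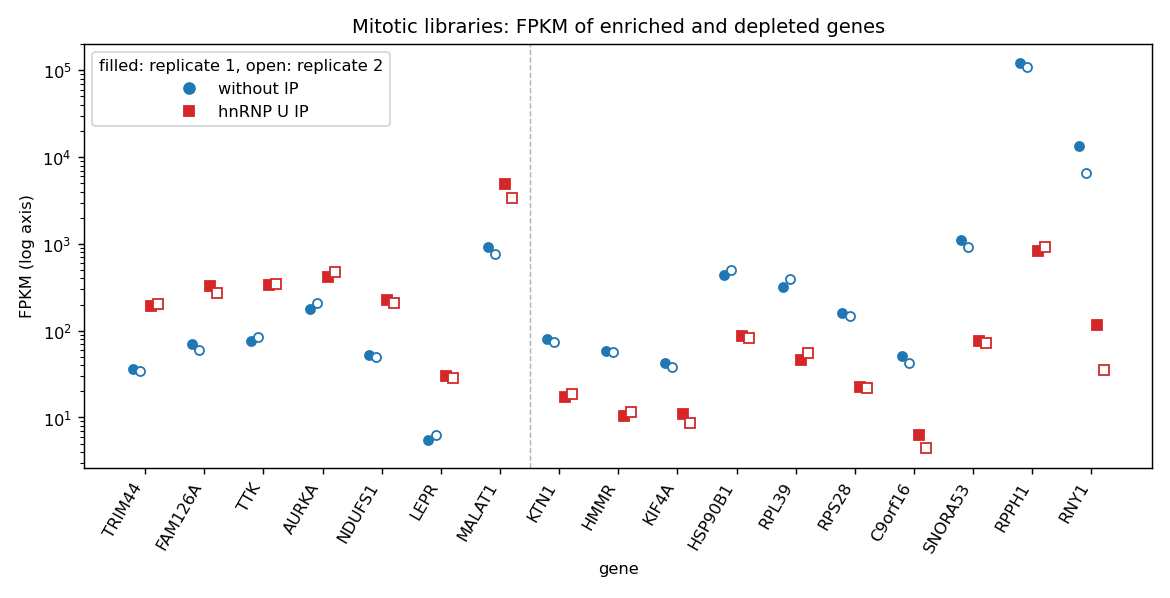
FPKM (log axis) of 17 genes in the 4 mitotic libraries, circles without IP and squares in the IP, filled for replicate 1 and open for replicate 2. The 7 genes left of the dashed line were higher and the 10 to its right lower in the IP, and in none of them did the groups overlap.

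Small structured RNAs were the most depleted class. These RNAs fold tightly and work in fixed particles: RNY1 is a Y RNA, RPPH1 the RNA of RNase P, RN7SK the scaffold that holds the elongation factor P-TEFb inactive, and RNU4-1 and RNU6ATAC are RNAs of the major and minor spliceosome. The sequences of 3 of them are shown because they are among the 6 noncoding genes with the largest decreases. They are written as DNA from GENCODE 29 (GRCh38), with runs of at least 4 T in capitals, and RNA polymerase III ends its transcripts at such runs.
RNY1 (chr7:148987136-148987248, minus strand): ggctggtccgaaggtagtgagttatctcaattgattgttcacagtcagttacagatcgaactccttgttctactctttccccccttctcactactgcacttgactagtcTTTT
RNU6ATAC (chr9:134164439-134164564, minus strand): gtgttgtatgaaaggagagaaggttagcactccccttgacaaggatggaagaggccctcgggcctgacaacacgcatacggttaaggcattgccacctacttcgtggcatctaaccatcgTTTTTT
RNU4-1 (chr12:120293097-120293237, minus strand): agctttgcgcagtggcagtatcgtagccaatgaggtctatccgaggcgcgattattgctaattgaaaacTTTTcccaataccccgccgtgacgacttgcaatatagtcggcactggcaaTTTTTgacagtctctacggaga
RNY1 and RNU6ATAC, which RNA polymerase III makes, end in the run of T, and RNU4-1, which RNA polymerase II makes, does not.

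RNY1 had 13512 and 6501 FPKM without IP and 116 and 35.7 FPKM in the IP (log2 fold change -7.16, SE 0.58, adjusted p 1.54e-05). RPPH1 had 120772 and 110649 FPKM without IP and 826 and 915 FPKM in the IP (-7.05, SE 1.33, adjusted p 0.00148). RN7SK had 88057 and 81792 FPKM without IP and 1734 and 1997 FPKM in the IP (-5.51, adjusted p 0.0144). The groups were far apart for all 3. On the list of Pol III and RNase P/MRP RNAs 4 of 5 measured genes fell. One of the 4 is the telomerase RNA gene TERC (-1.96), which RNA polymerase II transcribes, and without it 3 of 4 fell. RMRP, the RNA of RNase MRP, had 85829 and 91109 FPKM without IP and 11574 and 8417 FPKM in the IP and did not pass the test (-3.16, adjusted p 0.292). Of 15 spliceosomal snRNA genes 12 fell and none rose (median -3.21, range -4.96 to -1.36). RNU4-1 had 96299 and 55568 FPKM without IP and 3806 and 1441 FPKM in the IP (-4.96), RNU6ATAC 262 and 110.4 FPKM without IP and 12.1 and 1.62 FPKM in the IP (-4.87), and RNU4ATAC, the minor spliceosome counterpart of U4, 567 and 125 FPKM without IP and 53.8 and 2.89 FPKM in the IP (-4.20). RNU11 (-1.79) and RNU12 (-1.36) of the minor spliceosome fell less. The calls of RN7SK, RNU4-1, RNU4ATAC, RNU11 and RNU12 were lost when some single libraries were left out: RN7SK without any of the 4, RNU4-1 without IP replicate 2 or either library without IP, and RNU4ATAC, RNU11 and RNU12 without IP replicate 2 or no-IP replicate 1. With trends in transcript length and GC content removed, 5 of the 15 snRNA genes were called lower (median -1.95). RN7SK (adjusted p 0.128), RNU4-1 (0.140), RNU4ATAC (0.0701) and RNU11 (0.784) then lost their calls, and RNU12 stood at 0.15.

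Guide RNAs for RNA modification were lower in the values as measured, but for snoRNAs this direction did not hold once length and GC trends were removed. C/D box snoRNAs direct methylation, H/ACA box snoRNAs direct pseudouridylation, and scaRNAs do the same for snRNAs in Cajal bodies. Of 82 H/ACA genes 41 fell and 1 rose (median -1.39), of 67 C/D genes 28 fell and 3 rose (-1.21), and of 22 scaRNA genes 19 fell and none rose (-1.80). SCARNA16 had 751 and 529 FPKM without IP and 39.6 and 20.6 FPKM in the IP (-4.41), SNORA53 1104 and 926 FPKM without IP and 76.99 and 71.8 FPKM in the IP (-3.75), and SNORD102 632 and 737 FPKM without IP and 28.4 and 45.8 FPKM in the IP (-4.20). SNORA12 (-3.35), SCARNA10 (-2.89), SNORD77 (-2.75) and SNORD84 (-2.82) also fell, SNORD84 losing its call without no-IP replicate 1. SNORA58, from 11.9 and 14.6 FPKM without IP and 49.4 and 29.1 FPKM in the IP (1.46), and SNORD116-14 (1.40) were higher. For 48 C/D, 75 H/ACA and 19 scaRNA genes the interval in the file is over 2 times the annotated gene, so reads of the host gene can be included. With the trends removed, 22 C/D genes were higher and 3 lower of 60 (median 0.32), 9 H/ACA genes were higher and 3 lower of 82 (-0.01), and 2 scaRNA genes were higher and 9 lower of 20 (-0.91). Among 8 microRNA genes 3 fell and 1 rose (median -0.69, and 0.66 with the trends removed). MIR6516, whose hairpin overlaps SCARNA16, fell (-5.000), and MIR3605 rose (2.48), both in file intervals far longer than the hairpin.

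Long noncoding RNAs differed from list to list. Of 9 nuclear lncRNAs on the list 7 rose and 1, JPX, fell (median 0.79, against 0.01 for all genes). With length and GC trends removed 4 were higher and 1 lower (median 0.15), the calls of FTX (adjusted p 0.298), KCNQ1OT1 (0.215) and OIP5-AS1 (0.385) being lost. MALAT1, which concentrates in nuclear speckles, had 929.7 and 756 FPKM without IP and 4919 and 3400.2 FPKM in the IP (log2 fold change 2.29, SE 0.30, adjusted p 0.000166). NEAT1, the scaffold of paraspeckles, had 34.4 and 35.5 FPKM without IP and 105 and 98.4 FPKM in the IP (1.52). LINC00657, also called NORAD, which binds Pumilio proteins, had 78.04 and 79.04 FPKM without IP and 228 and 237 FPKM in the IP (1.55). The IP libraries of all 3 were above both libraries without IP. JPX was low throughout, with 2.26 and 1.70 FPKM without IP and 1.18 and 1.18 FPKM in the IP (-0.45), and its call was lost without no-IP replicate 1. The file interval of JPX is 2.77 times as long as the annotated gene. Of 126 LINC-named genes 33 rose and 14 fell (median 0.10), with LINC00597 highest (1.70) and LINC00152 lowest (-1.47). Of 299 antisense-named genes 92 rose and 23 fell (0.16); NFYC-AS1 had 1.60 and RASSF8-AS1 1.33. Their shares higher, 26.2% and 30.8%, do not exceed the 32.8% of all genes. Their shares lower, 11.1% and 7.7%, lie below the 31.7% of all genes. Under 1 FPKM on average both with and without IP were 60 and 158 members. With the trends removed, 48 LINC-named genes were higher and 19 lower of 113. Of 295 antisense-named genes 127 were then higher and 42 lower, against 4329 and 3720 of all 13162 genes. Among the 299 antisense-named genes 189 overlap another interval. MicroRNA host lncRNAs gave 6 higher and none lower of 16 (median 0.19), and 5 and 4 with the trends removed, with MIR181A2HG at 1.21. The hosts of snoRNAs stood apart from these lncRNAs: of 23, 13 fell and 3 rose (median -0.55), from SNHG6 (-2.06) and SNHG8 (-1.68) to SNHG24 (0.84). The largest decrease among antisense-named genes, LRRC75A-AS1 at 880.3 and 922 FPKM without IP and 237 and 219 FPKM in the IP (-1.98), is also a snoRNA host. Medians of both host lists changed sign, to 0.35 over 3 snoRNA hosts and to -0.05 over 12 microRNA hosts, without genes that overlap another interval. The pseudogenes POU5F1P5 (2.48) and RPS16P5 (2.33) and the intronic transcript ERI3-IT1 (2.12) rose, all 3 in file intervals far longer than the annotated gene.

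Of the 1321 features in the lncRNA table, 16 were higher (1.21%) and 37 lower (2.8%) in the IP. XLOC_010322 (chr22:27611068-27622760, hg19) had 239 and 241 FPKM without IP and 30.4 and 26.4 FPKM in the IP, a log2 fold change of -3.04 (SE 0.21, adjusted p 0.00552). XLOC_006445 (chr17:29417711-29423124) had 23.7 and 27.4 FPKM without IP and 2.53 and 2.12 FPKM in the IP (-3.00). Both features were lowest in the 2 IP libraries, with no overlap. XLOC_011575 (chr4:39135532-39137228) had 27.5 and 24.3 FPKM without IP and 75.4 and 108 FPKM in the IP (1.77, SE 0.30, adjusted p 0.0322). XLOC_013685 (chr6:114373748-114397445) had 1.34 and 0.842 FPKM without IP and 5.67 and 5.43 FPKM in the IP (1.66). The features called lower came from loci of 10817 bases at the median, against 19621 over all features and 19959.5 for those called higher. In interphase the IP effect was positive for 16 of the 16 and negative for 36 of the 37, against 653 positive of all 1321 features. At an unadjusted p below 0.05 there were 150 higher and 138 lower features. The calls depend on single libraries: leaving out any 1 of the 4 mitotic libraries left 0 features higher and 0 to 2 lower. Quantile normalization left 0 and 3, against a share of higher calls of 30.2% with all libraries and no scaling. A replicate block moved the numbers the other way, to 66 higher and 110 lower. The labels do not say what a replicate number marks.

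**Figure D2:**
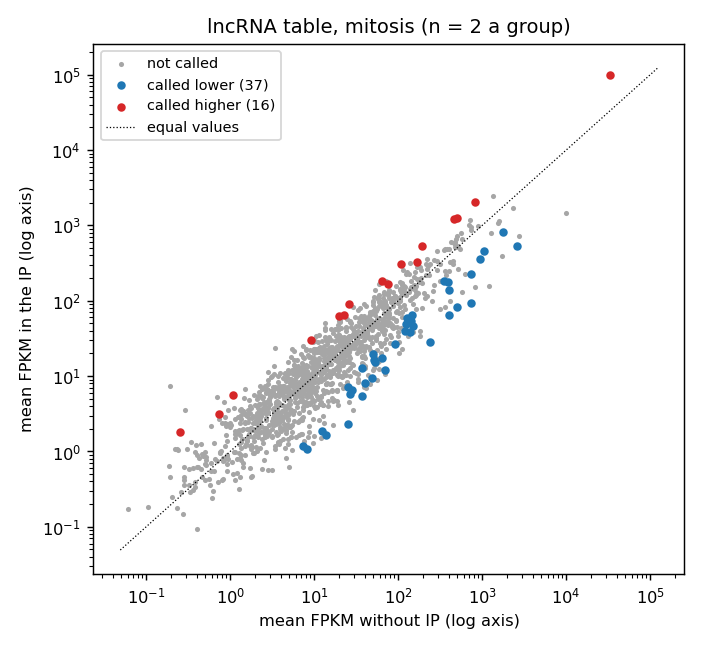
Mean FPKM of each of 1321 lncRNA features in the mitotic IP against the mean without IP (log axes, n = 2 a group), with the 16 features called higher and the 37 called lower in colour. The called features lie on both sides of the line of equal values. The largest log2 fold change was 2.43 over all features and 1.77 among those called higher, so uncalled features also lie far from the line.

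Among mRNAs, those of the ribosome and of respiration were the most evenly depleted. Cytosolic ribosomal proteins gave 74 lower and 1 higher of 83 genes (median log2 fold change -1.43), the exception being RPL36A (0.82). Oxidative phosphorylation gave 62 lower and 10 higher of 81 (median -0.99). COX8A, a subunit of cytochrome oxidase, had 319 and 278 FPKM without IP and 78.5 and 52.6 FPKM in the IP (-2.19), while NDUFS1, the large iron-sulfur subunit of complex I, had 52.01 and 49.8 FPKM without IP and 223 and 206 FPKM in the IP (2.05). These 2 genes of the same pathway changed in opposite directions by similar amounts. NDUFB1 (-2.14) and ATP5I (-2.08) fell, and SDHD of complex II rose (1.27). Mitochondrial ribosomal proteins were mixed, with 41 lower and 18 higher of 79 (median -0.30), from MRPL41 (-1.71) and MRPL20 (-1.67) to MRPS25 (1.46). Proteasome subunits gave 19 lower (41.3%) and 14 higher (30.4%) of 46 (-0.14), against 31.7% and 32.8% of all genes. PSMB3 (-1.64) and PSMA7 (-1.60) were lower and the activator PSME4 (1.36) and PSMD1 (1.14) higher. Replication-dependent histones, whose mRNAs end in a stem-loop without a poly(A) tail, gave 29 lower and none higher of 40 (median -0.85). HIST1H4C had 53.99 and 67.98 FPKM without IP and 13.5 and 12.1 FPKM in the IP (-2.16) and HIST1H4E 43.3 and 37.2 FPKM without IP and 10.4 and 9.12 FPKM in the IP (-1.94). HIST1H2BC, a histone H2B gene, had 15.9 and 15.97 FPKM without IP and 2.81 and 3.71 FPKM in the IP (adjusted p 8.77e-06). With length and GC trends removed, 11 histone genes were higher and 10 lower (median -0.03). Near-identical histone copies share reads, so single histone genes are uncertain.

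Zinc finger genes were the largest list with an excess of increases: 259 of 457 ZNF-named genes (56.7%) rose and 41 fell, with a median of 0.44. With length and GC trends removed, 199 were higher and 74 lower (median 0.25). Many encode DNA-binding repressors of the KRAB family. ZNF260 had 7.55 and 9.58 FPKM without IP and 30.2 and 37.4 FPKM in the IP (1.86) and ZNF507 6.59 and 6.63 FPKM without IP and 25.6 and 25.1 FPKM in the IP (1.79), and in both the IP libraries were well above the others. ZNF598, a ubiquitin ligase that senses collided ribosomes rather than a DNA-binding factor, had 10.9 and 9.64 FPKM without IP and 2.33 and 2.68 FPKM in the IP (-1.68). RNA decay and P-body factors gave 22 higher and 11 lower of 37 (median 0.70), and 20 and 8 with the trends removed (0.36). The decapping enzyme DCP2 had 17.6 and 16.9 FPKM without IP and 72.99 and 60.2 FPKM in the IP (1.88), and the CCR4-NOT genes CNOT4 (1.55) and CNOT6L (1.53) rose, whereas UPF2 of nonsense-mediated decay fell, from 11.5 and 11.2 FPKM without IP and 3.25 and 3.15 FPKM in the IP (-1.56). p53 targets gave 11 higher and 4 lower of 25 (median 0.03). RRM2B, a ribonucleotide reductase subunit, had 10.1 and 11.6 FPKM without IP and 48.2 and 49.2 FPKM in the IP (2.08), ZMAT3 1.70 and SESN1 1.58, and the apoptosis gene BAX had 91.1 and 92.5 FPKM without IP and 26.7 and 21.9 FPKM in the IP (-1.88). Nuclear pore and lamina genes gave 15 higher and 12 lower of 38 (0.20). The scaffold nucleoporins NUP205 (1.58), NUP155 (1.48) and NUP133 (1.42) rose, and the inner membrane protein EMD (-1.95) and its DNA-binding partner BANF1 (-1.56) fell. DNA replication genes gave 19 higher and 14 lower of 44 (0.31), with RRM1 (1.45), ORC4 (1.40) and GINS4 (1.22) higher and MCM3 (-1.64) and POLE (-1.53) lower. The file intervals of DCP2, GINS4 and BANF1 are 11.6, 6.05 and 3.67 times as long as the annotated genes. They can include reads of other genes.

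**Figure D3:**
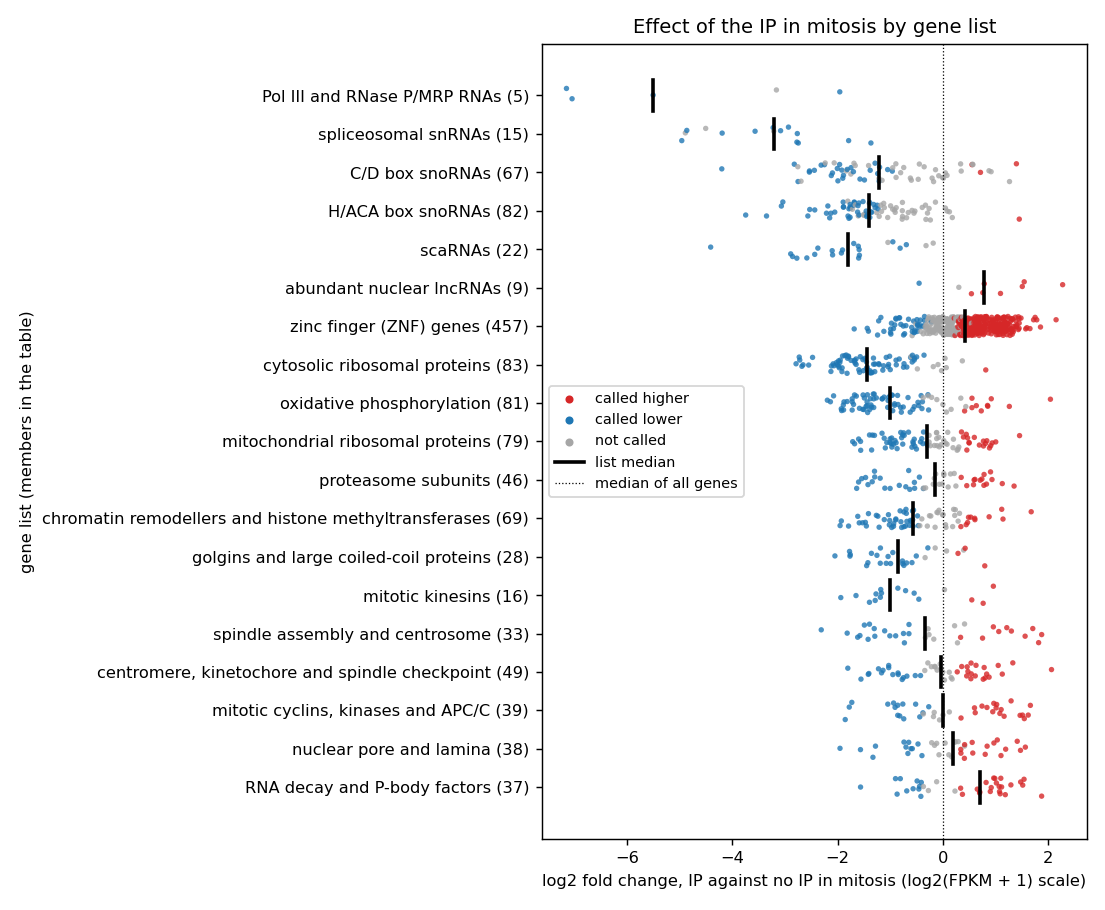
Log2 fold change of the IP in mitosis for each member of 19 gene lists, red where called higher, blue where called lower and grey where not called, with the list median as a bar and the median of all genes (0.01) as a dotted line. Small structured RNAs lie farthest to the left, nuclear lncRNAs, ZNF genes and RNA decay factors have medians to the right, and most mRNA lists hold members on both sides.

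The mRNAs of the mitotic machinery, abundant in these cells, did not move as a block. Of 16 mitotic kinesin genes 12 fell and 3 rose (median -1.01). The chromokinesin KIF4A had 42.4 and 37.7 FPKM without IP and 10.9 and 8.61 FPKM in the IP (log2 fold change -1.94, SE 0.14, adjusted p 1.16e-05). KIF20A, which acts at the central spindle, had 87.9 and 91.96 FPKM without IP and 24.8 and 31.6 FPKM in the IP (-1.65), and KIF18A, which dampens chromosome oscillation, had 56.9 and 60.4 FPKM without IP and 21.1 and 22.3 FPKM in the IP (-1.39). The IP libraries of all 3 were below both libraries without IP. KIF20A has the same interval in the file as CDC23, so reads of these genes may be mixed. KIF11, which encodes Eg5 and was picked as the target of STLC, had 104 and 107 FPKM without IP and 51.2 and 65.96 FPKM in the IP (-0.85). The depolymerase KIF2A (0.97) and KIF23 (0.77) rose. Kinetochore and checkpoint genes gave 19 higher (38.8%) and 17 lower (34.7%) of 49 (-0.03), near the 32.8% and 31.7% of all genes. The checkpoint kinase TTK had 77.02 and 83.5 FPKM without IP and 334 and 347 FPKM in the IP (2.07), whereas NUF2, a kinetochore coiled-coil protein, had 66.2 and 86.4 FPKM without IP and 19.2 and 22.9 FPKM in the IP (-1.80). CLASP2 rose (1.34), and CLIP1 (-1.55) and SPDL1 (-1.41) fell. Spindle assembly and centrosome genes gave 16 lower and 10 higher of 33 (-0.33). HMMR, a spindle-pole coiled-coil protein, had 58.6 and 57.5 FPKM without IP and 10.3 and 11.6 FPKM in the IP (-2.31), and TPX2, the activator of Aurora A, 129 and 136 FPKM without IP and 34.2 and 39.6 FPKM in the IP (-1.82). CDK5RAP2 fell (-1.62). With length and GC trends removed, 8 kinetochore and checkpoint genes were higher and 19 lower. Of the spindle assembly and centrosome genes 10 were then higher and 20 lower (median -0.75). HAUS6 of the augmin complex had 8.10 and 10.2 FPKM without IP and 32.9 and 40.2 FPKM in the IP (1.89) and ASPM, a spindle-pole protein, 41.3 and 45.2 FPKM without IP and 135 and 180.3 FPKM in the IP (1.83), both higher with no overlap.

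Regulators of mitosis also held both directions. Mitotic cyclins, kinases and subunits of the anaphase-promoting complex (APC/C) gave 18 higher (46.2%) and 15 lower (38.5%) of 39 (median 0.01). The shares of all genes were 32.8% and 31.7%. BORA, an activator of Aurora A and PLK1, had 21.4 and 21.3 FPKM without IP and 63.6 and 77.5 FPKM in the IP (1.67), and the APC/C subunits CDC23 (1.63) and CDC27 (1.56) rose. The file interval of BORA is 10.8 times as long as the annotated gene. That of CDC23 is shared with KIF20A, so both intervals can include reads of other genes. The small catalytic subunit ANAPC11 had 49.3 and 40.1 FPKM without IP and 14.4 and 9.32 FPKM in the IP (-1.85) and UBE2S, the ubiquitin-conjugating enzyme that works with it, 51.9 and 50.8 FPKM without IP and 14.3 and 14.3 FPKM in the IP (-1.78), both lower. Of the chromosomal passenger list 4 of 7 fell: INCENP (-1.38), BIRC5 (-1.003), CDCA8 (-0.91) and AURKB, the kinase (-0.88). The listed paralog AURKA had 179 and 207 FPKM without IP and 411 and 477 FPKM in the IP and rose (1.20). AURKA and AURKB thus moved in opposite directions as measured. With length and GC trends removed AURKA kept its call (1.15, adjusted p 0.000128) and AURKB lost it (-0.24, adjusted p 0.189). Condensin and cohesin genes gave 6 higher and 7 lower of 25 (0.04), and 4 and 13 with length and GC trends removed (-0.37). NCAPG2 had 47.5 and 47.9 FPKM without IP and 161 and 157 FPKM in the IP (1.72), PDS5A 1.29, NCAPG 1.28. MKI67, which is counted on this list but is neither a condensin nor a cohesin gene and coats mitotic chromosomes, fell (-1.24). The cohesin subunit SMC3 fell too (-1.11). Tubulins gave 8 lower and 3 higher of 15 (-0.28), and 4 of each with the trends removed, TUBB3 (-1.52) and TUBB6 (-1.33) being lowest and TUBD1 highest (0.94).

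Long mRNAs of coiled-coil and chromatin proteins were depleted in mitosis. Of 28 golgin and large coiled-coil genes 21 fell and 3 rose (median -0.86). KTN1, kinectin, an ER membrane protein, had 80.5 and 74.4 FPKM without IP and 17.3 and 18.6 FPKM in the IP (log2 fold change -2.05, SE 0.18, adjusted p 2.39e-05). RRBP1, the ER ribosome-binding protein, had 40.3 and 34.7 FPKM without IP and 9.73 and 10.8 FPKM in the IP (-1.77), and MYH9, non-muscle myosin heavy chain, 157 and 90.8 FPKM without IP and 35.8 and 33.1 FPKM in the IP (-1.76). DST rose (0.80), as did GCC1 (0.43), whose call was lost without IP replicate 1 or no-IP replicate 2. Chromatin remodellers and histone methyltransferases gave 39 lower and 11 higher of 69 (-0.57). The remodeller ATPase SMARCA4 had 16.5 and 13.5 FPKM without IP and 2.91 and 3.50 FPKM in the IP (-1.93), the H4K20 methyltransferase SETD8 -1.95 and CHD3 -1.79. SETD7 (1.69) and the demethylase KDM6A (1.15) rose. ER translocation and folding genes gave 19 lower and 11 higher of 39 (-0.32). HSP90B1, the ER chaperone GRP94, had 435 and 495 FPKM without IP and 87.7 and 82.8 FPKM in the IP (-2.43), and the short OST4 (-2.43) and SEC61G (-2.30) fell by similar amounts. SPCS3 (1.09) and SSR3 (1.05) rose. With length and GC trends removed, 22 genes of this list were lower and 6 higher. Cytosolic chaperones gave 12 lower and 10 higher of 26 (-0.24). HSP90AA1 had 193 and 211 FPKM without IP and 53.5 and 61.6 FPKM in the IP (-1.79) and HSPE1 -1.79, whereas 2 subunits of the TRiC chaperonin, CCT4 with 56.3 and 71.2 FPKM without IP and 195 and 245 FPKM in the IP (1.77) and TCP1 (1.68), rose. The file interval of HSPE1 is 19.4 times as long as the annotated gene and can include reads of other genes.

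Translation and metabolism lists held both directions. Initiation factors gave 26 lower and 15 higher of 54 (median -0.32). EIF2S2, the beta subunit of eIF2, had 28.4 and 36.2 FPKM without IP and 7.47 and 9.51 FPKM in the IP (-1.81), and EIF2S1, its alpha subunit, 37.5 and 42.4 FPKM without IP and 77.7 and 90.01 FPKM in the IP (1.05), so subunits of 1 complex went apart. EIF3B fell (-1.71) and EIF5A2 rose (1.07). Of 7 elongation factors 2 fell and 2 rose, EEF2 reaching -1.51 and EEF1A1 0.80. Aminoacyl-tRNA synthetases gave 10 lower and 8 higher of 20 (-0.31), with CARS (-1.58) and AARS (-1.33) lower and RARS (1.87) and IARS (1.66) higher. Glycolysis gave 9 lower and 3 higher of 16 (-0.62), with PFKP (-1.61), PFKL (-1.30) and HK1 (-1.02) lower and LDHA (1.26) and PGK1 (0.73) higher. Cholesterol synthesis gave 10 in each direction of 23 (-0.16), and 10 higher and 5 lower with length and GC trends removed (0.03). IDI1 had 28.7 and 26.03 FPKM without IP and 72.4 and 63.3 FPKM in the IP (1.28), while DHCR7 had 15.1 and 14.2 FPKM without IP and 4.98 and 4.31 FPKM in the IP (-1.47). The file interval of IDI1 is 3.02 times as long as the annotated gene. Genes with SLC symbols, nearly all solute carriers, gave 73 higher (34.4%) and 68 lower (32.1%) of 212 (0.04). These shares are near the 32.8% and 31.7% of all genes. The transporters SLC38A1 (2.09) and SLC25A36 (1.73) were high and SLC7A5 (-1.69) low. The lowest member, SLC4A1AP (-1.90), is on the list by its symbol only and encodes a nuclear protein. Collagen and matrix genes gave 8 higher and 7 lower of 53 (-0.04), and 18 and 10 with the trends removed (0.14). Of the 53, 21 were under 1 FPKM on average both with and without IP. LOX (1.67) and COL4A1 (1.003) rose, and LOXL1 (-1.58) and LAMC1 (-1.06) fell. Immediate early genes gave 12 lower and 2 higher of 27 (-0.37, and 0.12 with length and GC trends removed), with JUND (-1.43), SRF (-1.43) and MYC (-1.41) lower and KLF10 (0.90) and KLF6 (0.46) higher.

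The mRNA of hnRNP U itself did not pass the test. HNRNPU had 46.2 and 47.2 FPKM without IP and 47.6 and 54.4 FPKM in the IP, a log2 fold change of 0.12 (SE 0.10, adjusted p 0.311), and -0.60 with length and GC trends removed (adjusted p 0.000852). The lower IP value lay just above the higher value without IP. The paralog HNRNPUL1 had 72.3 and 60.1 FPKM without IP and 14.5 and 12.8 FPKM in the IP (-2.20) and HNRNPUL2 15.04 and 14.6 FPKM without IP and 23.9 and 21.99 FPKM in the IP (0.60). The file interval of HNRNPUL2 is 2.50 times as long as the annotated gene. Of 24 hnRNP genes 8 rose and 6 fell (median 0.12), and 6 and 11 with the trends removed (-0.15). HNRNPM had 58.9 and 56.6 FPKM without IP and 13.4 and 12.99 FPKM in the IP (-2.05) and HNRNPL -1.53, against HNRNPA3 with 20.98 and 22.02 FPKM without IP and 52.8 and 52.8 FPKM in the IP (1.26) and HNRNPLL (1.18). Of 13 SR splicing factors 5 rose and 3 fell (-0.03), and 2 and 8 with the trends removed, SRSF10 (1.27) and SRSF6 (1.15) being higher and SRSF9 (-1.84) lower. Of the lineage markers OTX2 had 3.33 and 4.45 FPKM without IP and 9.96 and 12.3 FPKM in the IP (1.31) and MITF 9.44 and 7.06 FPKM without IP and 12.5 and 10.6 FPKM in the IP (0.45), both higher in the IP, MITF losing its call without IP replicate 1 or no-IP replicate 2. The mesenchymal list gave 2 lower of 7 (median -0.40, and 0.06 after quantile normalization) and the epithelial list 4 lower of 6 (-0.78). KRT8 and KRT18, both called lower on the epithelial list, have the same interval, so their reads may be mixed.

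The members that rose and those that fell within a list differed in the bases of their coding sequence. Over the 10503 protein-coding genes with a mean of at least 1 FPKM, those called higher had a median U share of the coding sequence of 24.99% and those called lower of 19.35%, with GC shares of 45.35% and 57.71%. The same ordering appeared inside functional lists. Proteasome genes that rose had 26.52% U and those that fell 20.35%. Nuclear pore genes had 27.3% and 20.26%, spindle assembly genes 27.01% and 20.93%, cohesin and condensin genes 26.63% and 18.87%, and SLC-named genes 28.73% and 21.72%. Collagen and matrix genes were an exception, with 18.47% U in the 6 that rose and 21.04% in the 7 that fell at this level. These are descriptions of lists chosen with results of these data known.

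Across the 10503 genes the mitotic log2 fold change rose with the U share of the coding sequence, with Spearman's rho of 0.57 (0.571 and 0.568 in the replicate pairs). It fell with the GC share (rho -0.52) and rose with the A share (0.38), the 3' UTR length (0.34) and hardly with the coding length (0.09). Genes share libraries and base shares are tied to each other, so these coefficients describe the tables and carry no test. In 5 groups of nearly equal size from the lowest to the highest U share, the median log2 fold changes were -0.71, -0.40, -0.03, 0.44 and 0.80. In the lowest group 6.8% of genes rose and 67.4% fell, and in the highest 73.5% rose and 8.4% fell, against 37.1% and 36.2% of all 10503. With trends in transcript length and GC content removed, rho with the U share was 0.28.

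As examples, 8 mRNAs are shown by the middle 120 bases of the longest annotated coding sequence from GENCODE 29 (GRCh38, written as DNA, with the coordinates of the gene). The shares given are those of whole coding sequences, and a single window need not follow them: the windows of LEPR and HMMR both hold 28.3% T. Capitals mark runs of at least 5 purines (A or G). LEPR, ZNF780A and SLC7A11 are among the most enriched mRNAs and have 30.7%, 27.7% and 30.5% U in the whole coding sequence.
LEPR (chr1:65420652-65641559, plus strand): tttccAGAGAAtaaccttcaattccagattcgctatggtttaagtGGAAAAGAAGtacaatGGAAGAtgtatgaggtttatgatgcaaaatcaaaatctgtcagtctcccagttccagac
ZNF780A (chr19:40069152-40090938, minus strand): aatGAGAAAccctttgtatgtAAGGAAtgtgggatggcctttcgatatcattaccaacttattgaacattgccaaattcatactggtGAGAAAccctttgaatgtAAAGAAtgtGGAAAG
SLC7A11 (chr4:138164097-138242349, minus strand): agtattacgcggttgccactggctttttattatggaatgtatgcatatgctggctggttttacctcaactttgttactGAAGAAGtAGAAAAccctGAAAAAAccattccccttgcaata
C9orf16 and PPDPF are among the most depleted and have 65.5% and 67.6% GC.
C9orf16 (chr9:128160260-128163928, plus strand): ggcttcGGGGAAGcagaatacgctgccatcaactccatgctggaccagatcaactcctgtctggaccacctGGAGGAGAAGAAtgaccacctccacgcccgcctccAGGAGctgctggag
PPDPF (chr20:63520724-63522206, plus strand): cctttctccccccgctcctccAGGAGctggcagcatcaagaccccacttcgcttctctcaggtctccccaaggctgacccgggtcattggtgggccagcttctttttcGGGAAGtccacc
KTN1, HMMR and GOLGA4 were depleted although their GC shares, 38.4%, 36.7% and 38.4%, are like those of the enriched mRNAs. GOLGA4 was picked for this after its values were seen (22.4 and 17.2 FPKM without IP and 4.72 and 5.50 FPKM in the IP, log2 fold change -1.76).
KTN1 (chr14:55559072-55701526, plus strand): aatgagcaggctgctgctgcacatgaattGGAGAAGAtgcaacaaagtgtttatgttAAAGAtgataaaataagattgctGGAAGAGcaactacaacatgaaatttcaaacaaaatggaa
HMMR (chr5:163460203-163491945, plus strand): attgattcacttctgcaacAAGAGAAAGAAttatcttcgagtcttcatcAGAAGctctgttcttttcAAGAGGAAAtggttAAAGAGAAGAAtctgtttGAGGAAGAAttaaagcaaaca
GOLGA4 (chr3:37243177-37366751, plus strand): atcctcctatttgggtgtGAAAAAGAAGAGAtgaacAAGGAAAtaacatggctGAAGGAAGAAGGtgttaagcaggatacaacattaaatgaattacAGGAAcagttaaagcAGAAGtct
KTN1, HMMR and GOLGA4 were richer in purines over the whole coding sequence: purines made up 62.1%, 61.6% and 62.8% of their coding sequences, against 50.4% in LEPR, 54.0% in ZNF780A and 46.8% in SLC7A11. The depleted C9orf16 and PPDPF had 55.8% and 42.6%. The windows of KTN1 and SLC7A11 each have 20 bases in runs of purines. Over 10501 genes a median of 19 bases of this window lay in such runs. The median was 20 for genes called higher and 18 for genes called lower, so the runs alone did not separate the calls.

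Genes poor in GC differed by whether A or U stood in its place. In the group of genes with the lowest GC share, the median log2 fold change in mitosis was -0.45 and -0.27 in U groups 2 and 3 (35 and 199 genes), 0.46 in group 4 and 0.90 in group 5, the highest in U. In interphase the same genes had medians of 0.69, 0.79, 0.98 and 1.02, all positive. Purine share showed no such steady order. Within the lowest GC group the mitotic medians from the lowest to the highest purine group were 0.70, 0.95, 0.96, 0.81 and 0.25. The 757 genes of the highest purine group had 0.88 in interphase, against 0.82 to 1.11 in the other purine groups. Over all 10503 genes the mitotic medians by purine group were -0.24, 0.01, 0.22, 0.23 and -0.16, and Spearman's rho with the purine share was 0.03. In the second GC group the highest purine group had -0.05 in mitosis and 0.48 in interphase. In the group richest in GC the medians were negative in both phases at every purine level, from -0.85 to -0.59 in mitosis and from -1.31 to -1.21 in interphase.

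**Figure D4:**
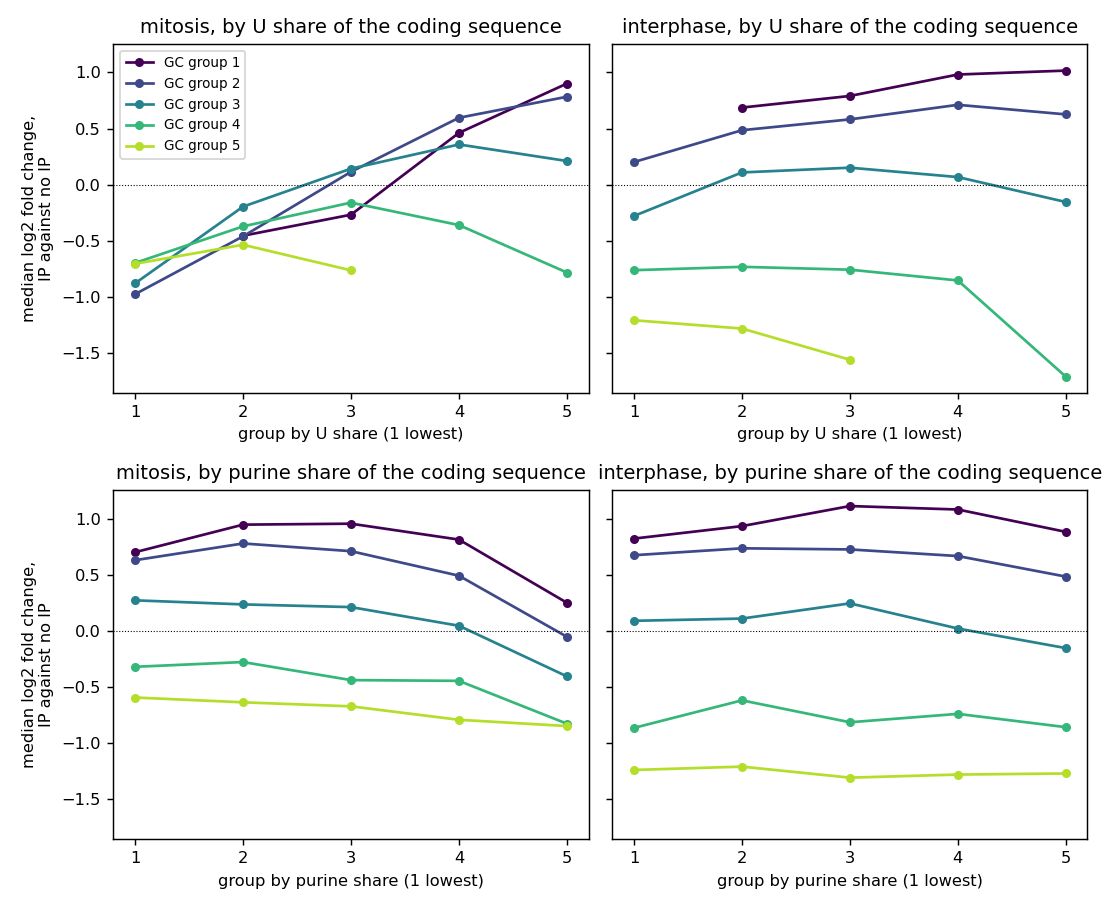
Median log2 fold change of the IP in mitosis (left) and interphase (right) for protein-coding genes in 5 groups by U share (top) or purine share (bottom) of the coding sequence, with a line for each of 5 groups by GC share and points of at least 20 genes only. In mitosis the lines of the 3 groups lowest in GC cross zero as the U share rises, and in interphase the lines stay apart by GC share.

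Length had another relation to the IP in mitosis than in interphase. Within the group with the shortest 3' UTRs, median log2 fold changes in mitosis were -0.90, -0.27, -0.16, -0.31 and -0.44 from the shortest to the longest coding sequences. In interphase they rose from -2.05 over -1.20, -0.75 and -0.25 to 0.22. Within the group with the longest 3' UTRs the mitotic medians were 0.56 for the shortest coding sequences, 0.71 in the middle group and 0.29 for the longest, and the interphase medians 0.75, 1.00 and 1.08. Longer 3' UTRs went with higher values at every coding length in both phases except between the 2 groups of shortest 3' UTRs, at 1 coding length in each phase. Spearman's coefficient of the interphase effect with coding length was 0.37, with the A share 0.60 and with the U share 0.53.

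**Figure D5:**
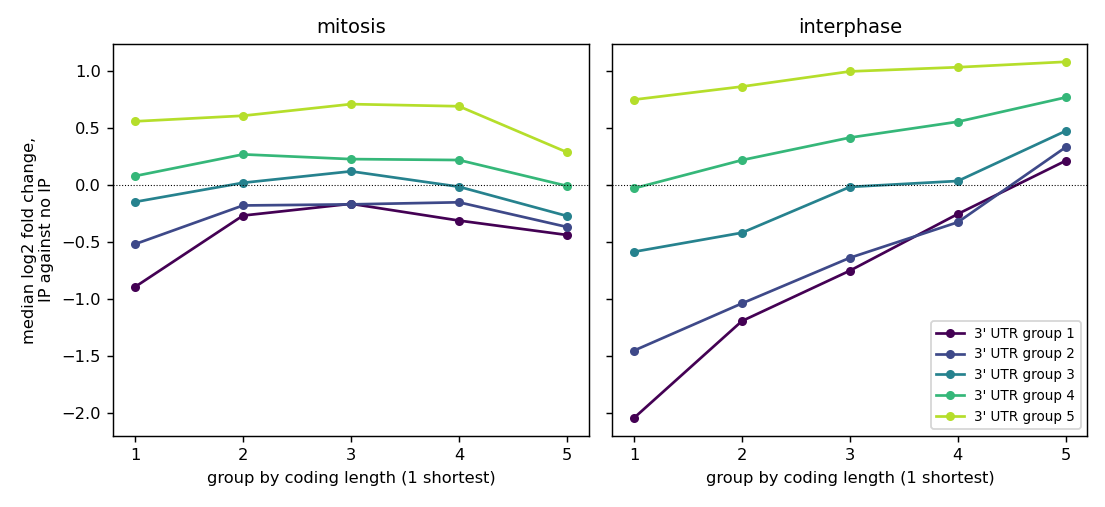
Median log2 fold change of the IP in mitosis (left) and interphase (right) for protein-coding genes in 5 groups by coding length, with a line for each of 5 groups by 3' UTR length. In interphase the lines climb with coding length, and in mitosis every line is lower in the group of longest coding sequences than in the group before it.

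The effect of the IP differed between mitosis and interphase in many genes. The test of the difference called 3662 genes more positive in mitosis (27.2%) and 2677 more negative (19.9%). This balance depends on the scaling, with 3209 and 3354 after quantile normalization and 2742 and 2582 with length and GC trends removed. Called lower in mitosis but higher in interphase were 502 genes, and 333 were of the reverse kind. All had a called difference, which choosing opposite calls in the same fit nearly fixes in advance, so it adds no support. The 482 coding genes of the first kind that reached 1 FPKM had a median coding length of 2793 nt, 55.98% purine and 21.99% U, against 1617 nt, 53.23% and 25.28% in the 3039 higher in both phases, at GC shares of 45.78% and 44.36%. In the middle window 67.2% of them had at least 20 bases in purine runs, against 48.3% of all.

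Negative differences were called in 19.9% of all genes, and in 25 of 28 golgin and coiled-coil genes, 23 of 33 spindle genes, 11 of 16 kinesins, 17 of 25 genes on the condensin and cohesin list, which includes MKI67, and 43 of 69 chromatin genes. Their interphase medians were 1.22, 1.12, 0.68, 1.34 and 0.44. KTN1 had 90.5 and 64.2 FPKM without IP and 169 and 225 FPKM in the IP in interphase, and 80.5 and 74.4 FPKM without IP and 17.3 and 18.6 FPKM in the IP in mitosis, so the interphase IP was above and the mitotic IP below the libraries without IP (difference -3.39, SE 0.26, adjusted p 5.89e-05). HMMR, at 9.19 and 8.97 FPKM without IP and 15.8 and 17.3 FPKM in the IP in interphase, and 58.6 and 57.5 FPKM without IP and 10.3 and 11.6 FPKM in the IP in mitosis, changed in the same way (difference -3.11, adjusted p 4.83e-05). SPTAN1, a spectrin, had 8.55 and 7.84 FPKM without IP and 44.7 and 23.2 FPKM in the IP in interphase, and 14.1 and 11.5 FPKM without IP and 3.53 and 5.38 FPKM in the IP in mitosis (difference -3.21). SNORD102 (-4.11) and SNORD17 (-3.17) had large negative differences too, both in file intervals far longer than the annotated gene.

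The largest positive differences were those of histones, which are made during DNA replication. HIST2H2BF had 78.6 and 75.01 FPKM without IP and 5.15 and 5.93 FPKM in the IP in interphase, and 0.323 and 0.128 FPKM without IP and 0.653 and 0.351 FPKM in the IP in mitosis (difference 3.87, SE 0.21, adjusted p 4.83e-05). HIST2H3D (3.44), HIST1H2BE (3.23) and HIST1H2AJ (3.16) followed, and 39 of 40 histone genes had a positive difference (interphase median -3.47). In mitosis without IP all 4 were below 2 FPKM, where the log2(FPKM + 1) scale shrinks any fold change. Short mRNAs shared this direction: 72 of 81 oxidative phosphorylation genes, 59 of 79 mitochondrial and 55 of 83 cytosolic ribosomal protein genes and 32 of 46 proteasome genes were more positive in mitosis, being less depleted than in interphase (interphase medians -2.28, -1.32, -2.36 and -1.24). For lncRNA features the same limma test, without a replicate block, called 0, and 149 had an unadjusted p below 0.05. With a block it called 3 features more positive and 10 more negative in mitosis.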

How the data were processed

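RNA from 8 hTERT-RPE1 libraries was analysed, 2 in each of 4 groups (IP and no IP, mitosis and interphase). The deposited values are FPKM, per the file headers, and the deposited ratio columns are quotients of FPKM columns of the same replicate number, per the file headers; the ratios were not tested. The submitters' processing notes name TopHat and StringTie; settings and versions are not given in the sources used here. The authors' gene table uses hg38 and the lncRNA table hg19. Each table was fitted on its own with limma (3.58.1, R 4.3.3; lmFit, eBayes with trend) on log2(FPKM + 1), without a filter, with 1 coefficient for each of the 4 groups (4 residual degrees of freedom). Benjamini-Hochberg adjustment ran over the whole table, and genes under 0.05 are called. The log2(FPKM + 1) scale understates changes of low genes. Genes were matched to GENCODE 29 by symbol (12665) or older symbol (497), and 309 were unmatched; 2873 genes (21.3%) overlap another interval, so their reads may be shared. Composition used the longest coding sequence. The fit was tested on simulated data. Members and lists were chosen with earlier results of these data known. Named genes are called, same-signed in both pairs and at least 1 FPKM on average in 1 group: 12 protein-coding, 6 other and 2 lncRNA features a direction, up to 3 and 2 a list, and 4 a direction for the difference. Not every item the rule selects is reported here. AURKB, FTX, GOLGA4, HNRNPL, KCNQ1OT1, KIF11, OIP5-AS1, RMRP, RNU11, RNU12 and TERC fall outside the rule and were named after their values were seen. Alternatives were another pseudocount, a level filter, other scalings, a replicate block, left-out libraries, trend removal and removal of overlapping genes.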

Additional observations from a re-analysis of the deposited data

Results flagged for a closer look

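The effect of the IP differed between mitosis and interphase, by the test of the difference itself, in 3662 genes that were more positive and 2677 that were more negative in mitosis. Among the genes named above, those with a called difference of at least 2 on the log2 scale are given here by group. In coiled-coil and cytoskeletal genes the difference was -3.39 for KTN1, -3.21 for SPTAN1, -3.00 for GOLGA4, -2.94 for RRBP1 and -2.52 for MYH9. In genes of mitotic proteins it was -3.11 for HMMR, -2.74 for KIF18A, -2.63 for MKI67, -2.29 for SPDL1, -2.28 for KIF4A and -2.14 for SMC3. SLC4A1AP, a nuclear protein gene despite its symbol, had -2.20. The snoRNA genes SNORD102 and SNORD17 had -4.11 and -3.17, in intervals that hold other genes. The histone genes were positive, with 3.87 for HIST2H2BF, 3.44 for HIST2H3D, 3.23 for HIST1H2BE and 3.16 for HIST1H2AJ, and were near or under 1 FPKM in mitosis.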

How the results depend on the processing

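The gene table kept its counts within 1.5 times in both comparisons under each alternative run. Leaving out 1 library gave 3861 to 4064 genes higher and 3597 to 3930 lower in mitosis, and 2962 to 3397 and 2109 to 2567 for the difference. With trends in transcript length and GC content removed, 4329 rose and 3720 fell, 5645 of them called alike without it, and for the difference 2742 and 2582. Quantile normalization gave 3209 and 3354 for the difference. In the lncRNA table the numbers higher and lower were 10 and 30 with centred libraries, 0 and 3 after quantile normalization, 0 and 0 with only the 4 mitotic libraries, and 0 and 0 to 2 when 1 library was left out; the cause was not tested beyond the fewer libraries. The replicate numbers gave 2 pairs only. Deviations of same-numbered mitotic libraries correlated at 0.5282 in the gene table and 0.6812 in the lncRNA table. A replicate block gave 4619 genes higher and 4480 lower, 66 and 110 lncRNA features, and 3 and 10 features for the difference.

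Removing the length and GC trends turned the sign of RNU12 (0.15), HNRNPU (-0.60), MITF (-0.011), FTX (-0.19), HIST2H3D (1.06), HIST1H2AJ (0.99), the medians of C/D snoRNAs (0.32), microRNA genes (0.66), hnRNP genes (-0.15), immediate early genes (0.12), condensin and cohesin genes (-0.37), cholesterol synthesis (0.03) and collagens (0.14), and rho with the purine share (-0.16). With these trends removed AURKB (adjusted p 0.189), DST (0.411), KIF23 (0.0566), KLF6 (0.0869), SNHG24 (0.0658) and SNORD84 (0.213) lost their calls. Without overlapping genes the medians of snoRNA hosts (0.35) and microRNA hosts (-0.047) changed sign, and quantile normalization turned that of mesenchymal markers (0.059) and the sign of VIM (0.20). Medians near 0 of the SR, kinetochore, mitotic cyclin and p53 target lists also changed sign under other settings. Depth is unknown, so no detection limit is given, and 2 libraries a group limit the precision.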
